A study of Glycine max with 12 samples.

Results

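Water deficit alone was set against control conditions in leaves of soybean (Glycine max). The comparison holds 3 water deficit libraries and 3 control libraries, and its members are all genes whose normalized count averaged at least 10 over these 6 libraries. That rule kept 32963 of the 55051 genes in the deposited table (59.9%), and 22088 genes fell under it, of which 12574 were at 0 in all 6 libraries. All plants were the wild-type cultivar Magellan, were raised in growth chambers and were sampled as leaves. The labels name the water deficit plants by that treatment alone and list the control plants as untreated. Another 6 libraries of the study came from plants under heat with water deficit (combined stress, 3 libraries) and under heat alone (heat stress, 3 libraries), and they are used here to estimate the spread and as libraries in which water deficit under heat can be set against heat without it. The labels do not say how dry the soil became, how long the treatment lasted, at what hour leaves were taken, or whether a library holds 1 plant or a pool. If the libraries of a group are not separate plants, the p-values below measure only the spread between these samples, which may be technical.

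When soil dries, plants make abscisic acid, a hormone that closes the leaf's stomata and switches on a large set of protective genes through transcription factors of the bZIP class, with further control by NAC, MYB, WRKY and DREB factors. Among the protective products are dehydrins and other late embryogenesis abundant (LEA) proteins, which coat and stabilise cell structures in drying seeds and leaves, and small sugars of the raffinose family, inositol and proline, which hold water in the cell. Malate channels, aquaporins and sugar carriers move the solutes and water that set the turgor of guard cells and leaf cells.

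The libraries had 36497023 to 44024140 reads. Pearson's r across genes was 0.938 to 0.982 between water deficit libraries, 0.961 to 0.978 between control libraries and 0.888 to 0.959 between a library of one group and a library of the other, with genes as points, which are not independent replicates. The summed normalized count of 11 leaf marker genes (Rubisco small subunit, chlorophyll-binding proteins and Rubisco activases) was 566279 to 1012036 in water deficit libraries and 782086 to 1539124 in control libraries, with the lowest sum in water deficit library 3 and the highest in control library 3. None of the 11 was called by limma, where 1.29% of all tested genes were, and 1 was higher at an unadjusted p under 0.05. RBCS-1, the Rubisco small subunit, had the highest mean among them, with 285851, 318782 and 183227 normalized counts in water deficit libraries and 230955, 188478 and 432675 in control libraries. Storage-protein and other seed markers were near 0, with 9 of 10 at 0 in all 6 libraries and a summed count of at most 1.8 in any library. Of 15 nodule genes, 12 were at 0 in all 6 libraries. These are bulk leaf RNA values, so fewer cells of a type and less RNA per cell cannot be told apart.

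Water deficit changed 424 genes at an adjusted p under 0.05 (limma, Benjamini-Hochberg over 32963 genes), which is 1.29% of the genes tested. Of these, 196 (0.595%) were higher and 228 (0.692%) lower in water deficit. The change was at least 2-fold in 185 of the higher and 203 of the lower genes, and at least 4-fold in 96 and 72. The median log2 change was 1.97 among the higher genes and -1.57 among the lower genes, against 0.02 over all genes tested, on the log2(normalized count + 1) scale that every log2 change below shares. All 196 higher and all 228 lower genes had no overlap between the groups, as 14.0% of all tested genes did upwards and 13.5% downwards. The called-higher genes together took 0.740% of the mean total count in water deficit and 0.202% in control, and the called-lower genes took 0.294% in water deficit and 0.800% in control. An unadjusted p under 0.05 was reached by 4563 genes, 2451 higher and 2112 lower.

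**Figure D1:**
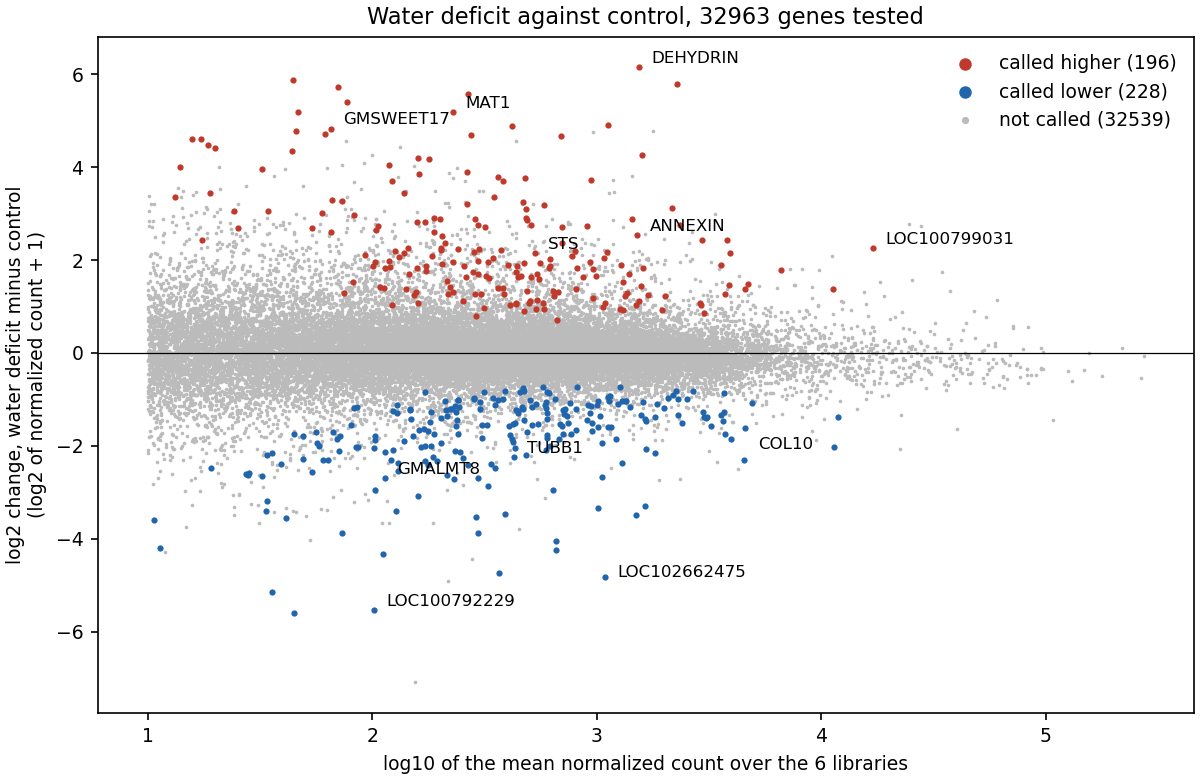
Each point is a gene, with the log10 of its mean normalized count over the 6 libraries on the x axis and its log2 change (water deficit minus control) on the y axis. Red marks the 196 genes called higher, blue the 228 called lower and grey the others, and some uncalled genes have larger changes than called genes of a similar level, because the spread between libraries also enters the test.

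The number of calls depended on which libraries estimated the spread. With only the 6 water deficit and control libraries in the fit, limma called 1339 genes (650 higher, 689 lower, 4.06% of those tested), and 409 of the 424 were among them. Without heat stress library 3 the count was 818, and without combined stress library 1 it was 890, with all 424 included each time. Without heat stress library 1 it was 281. Leaving out a library of the compared groups cut it to 57, 65 and 28 for control libraries 1, 2 and 3, and to 66, 229 and 61 for water deficit libraries 1, 2 and 3. Among the 57 called genes named below, 51 lost the call without control library 3, and 6 kept it in all 12 fits that each left out 1 library. Of these 6, LOC100795820, LOC102662475 and LOC547643 had a mean of at least 10 in both groups. The other three, LOC100790115, LOC100802855 and LOC100815777, passed the filter only through water deficit and had to differ for that reason. In all, 22 genes called higher had a control mean under 10, and 14 called lower had a water deficit mean under 10.

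Dehydrins gave the largest increases of genes with a name. DEHYDRIN, of the LEA proteins that bind water and membranes, had 1220.5, 137.3 and 7872 normalized counts in water deficit libraries 1, 2 and 3, against 15.0, 7.6 and 26.1 in control. All 3 water deficit libraries lay above all controls, but they were far apart from each other, with library 2 closest to the controls. The log2 change was 6.15 (SE 1.26, limma adjusted p 0.0419, n = 3 each). It was lost in 7 of the 12 fits that left out 1 library, with adjusted p values of 0.0537 to 0.156. MAT1, which RefSeq also lists as a dehydrin (LEA-D11), had 542.1, 246.2 and 549.5 in water deficit and 21.1, 9.9 and 5.2 in control. Its libraries were closer together, and its log2 change was 5.19 (SE 0.71, limma adjusted p 0.00939, n = 3 each), lost only without control library 3 (0.0629).

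Of 28 LEA and seed maturation genes in the table, 15 were tested, and 2 of these (DEHYDRIN and MAT1) rose and none fell, where 0.595% of all genes were called higher, or 3 and 0 with only the 6 libraries in the fit. Because 6 of the 15 passed the filter only through their water deficit values, and had to differ for that reason, the list's count and median are not read as a shift. LEA-1 had 1718.8, 1742.8 and 4052.1 normalized counts in water deficit and 556.8, 566.9 and 607.7 in control, with no overlap, and just missed the threshold (log2 change 1.99, limma adjusted p 0.0535). PM37, the most abundant of the list, lay on the other side, with 7160.6, 6000 and 10735.7 in water deficit and 11555.9, 12732.2 and 10986.7 in control. PM30 had 37.3, 5.5 and 503.4 in water deficit and 0, 3.0 and 5.2 in control, and PM3 had 16.8, 0.9 and 199.4 in water deficit and 0, 1.5 and 0 in control. Both were highest in water deficit library 3, as DEHYDRIN was, and neither was called.

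**Figure D2:**
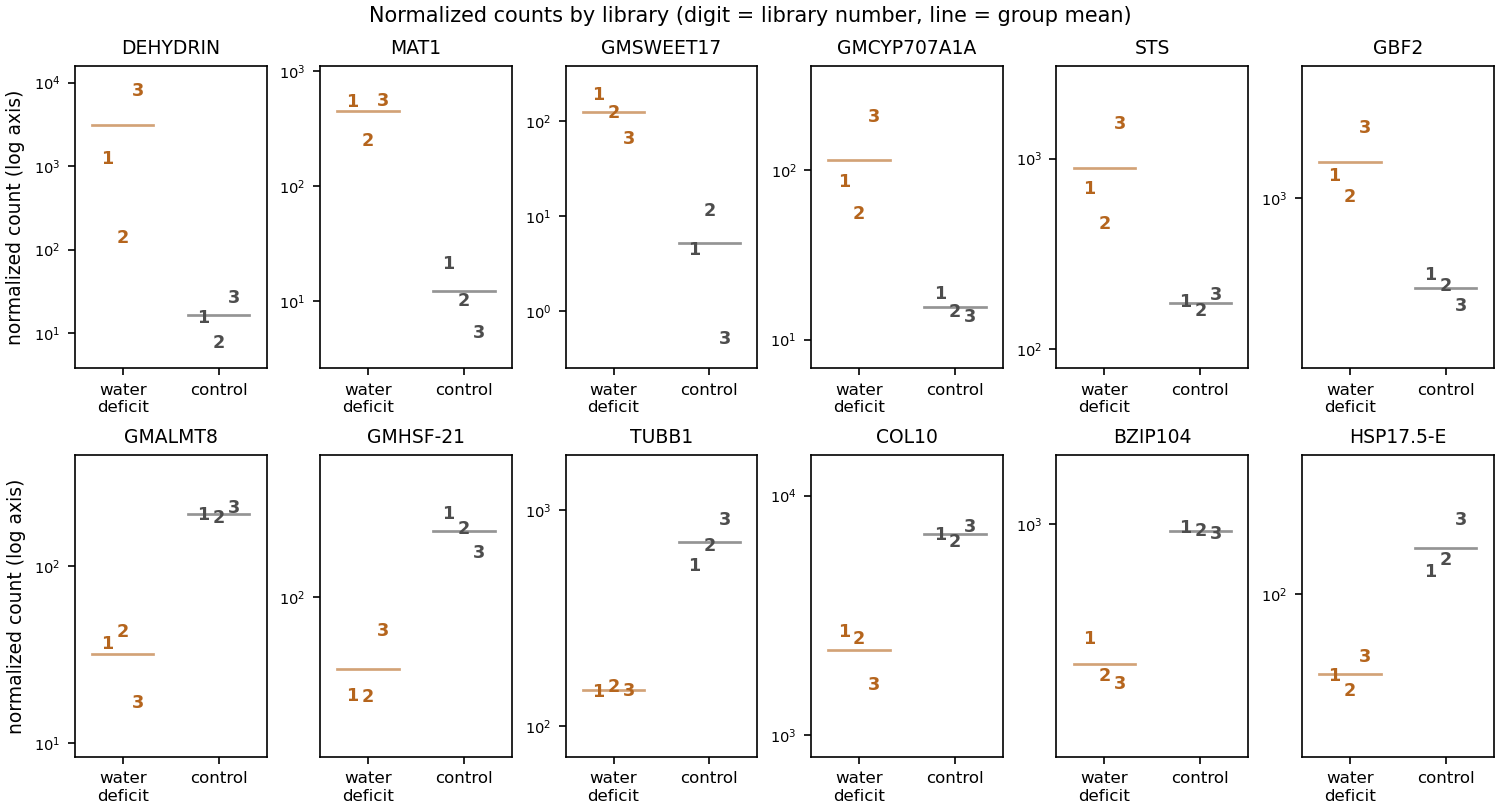
Normalized counts (log axis) of 12 called genes, 6 higher in the upper row and 6 lower in the lower row, with water deficit on the left and control on the right of each panel. Digits give the library number and lines the group means, a count of 0 is drawn at 0.5, and no panel has an overlap between its groups.

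Of the abscisic acid genes, 1 gene of the hormone's breakdown rose. GMCYP707A1A, a member of the hydroxylase family that inactivates abscisic acid, had 85.8, 54.9 and 205.6 normalized counts in water deficit and 18.5, 14.5 and 13.6 in control. Every water deficit library exceeded every control library, and the log2 change was 2.61 (SE 0.44, limma adjusted p 0.0182, n = 3 each). The call was lost without any 1 of control libraries 1 to 3 or water deficit libraries 1 and 3, at adjusted p values of 0.0614 to 0.102. NCED2, of the dioxygenase family that makes the hormone's precursor, was low, with 5.6, 6.4 and 0.9 in water deficit and 13.2, 29.0 and 22 in control (log2 change -2.24, limma adjusted p 0.124). NCED2 passed the filter only through its control values and had to differ for that reason. ZEP, which makes an earlier carotenoid precursor, had 21352.9, 17899.2 and 12308.8 in water deficit and 15162, 18752.7 and 14287.7 in control, which overlap. In all, 7 abscisic acid genes of 8 in the table were tested and 1 was called, where 1.29% of all genes were. This single call is not read as a shift of the list.

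Among genes for protective small solutes, 1 gene of the raffinose pathway rose. STS, the symbol of stachyose synthase, had 689.6, 453.1 and 1525.3 normalized counts in water deficit and 176.2, 159.2 and 191.4 in control, with no overlap and the highest value in water deficit library 3. Its log2 change was 2.15 (SE 0.41, limma adjusted p 0.0311, n = 3 each). Leaving out control library 1, 2 or 3 or water deficit library 1 or 3 ended the call, at adjusted p values of 0.0902 to 0.124. GOLS, galactinol synthase, which starts the pathway, had 615.8, 141.0 and 4926 in water deficit and 28.2, 41.9 and 16.7 in control. The libraries did not overlap, but with their spread the log2 change of 4.75 (SE 1.06) had a limma adjusted p of 0.0537. P5CS, the enzyme that commits glutamate to proline, had 306.1, 424.7 and 138.3 in water deficit and 158.6, 184.4 and 165.3 in control, which overlap. Of 9 raffinose, inositol, proline and betaine genes, all tested, STS alone was called, where 1.29% of all genes were. With only the 6 libraries in the fit 2 were called, where 4.06% of all genes were. The list's median log2 change was 0.67, against 0.02 over all genes.

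Transport genes gave calls in both directions. GMSWEET17, of the SWEET family of sugar carriers, had 191.3, 121.7 and 64.7 normalized counts in water deficit and 4.4, 11.4 and 0 in control. It was the only one of 19 SWEET and SUT genes tested, of 45 in the table, to be called (log2 change 4.83, SE 0.89, limma adjusted p 0.0269). Over all tested genes, 0.595% were called higher. GMSWEET17 is also 1 of the 4 among the 19 that passed the filter only through their water deficit values and had to differ for that reason. Its call was lost without control library 1 or 3 or any 1 water deficit library, at adjusted p values of 0.0656 to 0.11. GMSWEET15, the most abundant of them, had 3824.8, 2650.8 and 5039.5 in water deficit and 3171.8, 3583.2 and 3330.3 in control, which overlap. GMALMT8, of the family of aluminium-activated malate channels, was lower, with 36.4, 42.1 and 16.8 in water deficit and 192.1, 186.7 and 210.2 in control. The control libraries were close together and the log2 change was -2.69 (SE 0.40, limma adjusted p 0.0130, n = 3 each), which missed the threshold without control library 1, 2 or 3 (0.0569 to 0.0819). It was the 1 call among 17 malate channel genes tested, where 0.692% of all genes were called lower. With only the 6 libraries in the fit 4 of the 17 fell, where 689 of all 32963 genes did. The list was added after values were seen, so its counts are a description. GMALMT21, the most abundant, had 1022.7, 889.7 and 701.9 in water deficit and 1651.1, 1552 and 1433 in control, with no overlap (log2 change -0.84, limma adjusted p 0.0932).

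Further carriers among the genes with names rose. MATE, of the family that exports organic acids and other small molecules, had 1501.3, 1089.2 and 2672.2 normalized counts in water deficit and 363.9, 488.4 and 350.4 in control (log2 change 2.04, SE 0.33, limma adjusted p 0.0158). GMNRAMP2A, of the NRAMP metal transporters, was chosen after its values were seen because its replicates were close, at 2030.4, 2033.9 and 1948.1 in water deficit and 1032.6, 975.2 and 938.2 in control (log2 change 1.03, limma adjusted p 0.0400). None of 11 aquaporin genes tested, of 13 in the table, was called by limma, where 1.29% of all genes were. At an unadjusted p under 0.05, 2 were higher and 3 lower, where 2451 and 2112 of all 32963 genes were. With only the 6 libraries in the fit, 1 aquaporin gene rose and 2 fell. PIP1 had 197.8, 290.2 and 349.2 in water deficit and 62.6, 27.4 and 37.7 in control (limma adjusted p 0.0916), and PIP2 had 813.7, 844.8 and 543.3 in water deficit and 1295.1, 1676.9 and 1971.6 in control (0.276). The 2 genes lay apart from control on opposite sides, and both passed with only the 6 libraries (adjusted p 0.00795 and 0.0321).

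Among bZIP factors, the class through which abscisic acid acts on its target genes, 79 of 94 were tested, 3 rose and 4 fell. These shares stand beside 0.595% and 0.692% of all genes, and the list's median log2 change was -0.08. GBF2, a factor that binds G-box elements, had 1282.1, 1016.9 and 2190.9 normalized counts in water deficit and 422.0, 374.9 and 299.1 in control. Its log2 change was 1.97 (SE 0.35, limma adjusted p 0.0232). BZIP23 and BZIP77 were higher by 1.38 and 1.33 (limma adjusted p 0.0172 and 0.0156). In the other direction, BZIP125 had 56.9, 60.4 and 54.1 in water deficit and 244.1, 150.9 and 267.8 in control, a log2 change of -1.89. BZIP104 had 335.9, 237.1 and 220.7 in water deficit and 958.6, 931.0 and 911.0 in control, a log2 change of -1.84, and its groups did not overlap either. GMBZIP47 (log2 change -1.28, limma adjusted p 0.0419) and SBZ1, also known as bZIP88 (-0.73, 0.0424), were the others that fell. Each of these lost its call in 8 of the 12 fits that left out 1 library. BZIP71 reached 3576.6, 2181.2 and 5644.8 in water deficit and 998.2, 868.6 and 876.5 in control without being called (limma adjusted p 0.123, and 0.0167 with only the 6 libraries).

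NAC factors, a family with many stress-induced members, had a median log2 change of 0.76, against 0.02 over all genes. All 31 in the table were tested, and 22 had a log2 change above 0. Limma called 1 higher and none lower, where 0.595% and 0.692% of all genes were. The summed normalized count of the 31 was 21059, 17241 and 42374 in water deficit libraries 1, 2 and 3, with library 3 far above the others. In control libraries it was 18127, 16747 and 16418. With only the 6 libraries in the fit, 5 rose and 3 fell, where 650 and 689 of all 32963 genes did. LOC100811301, listed in RefSeq as GmNAC085, was the called gene, with 239.8, 160.2 and 1808.9 normalized counts in water deficit and 25.6, 33.5 and 33.5 in control. Water deficit library 3 stood far above the other two, and the log2 change was 3.71 (SE 0.81, limma adjusted p 0.0498). In 8 of the 12 fits that left out 1 library it was not called. LOC100816770, listed as NAC55, had 1228.9, 787.2 and 3229.6 in water deficit and 223.8, 328.4 and 257.3 in control, and just missed the threshold (log2 change 2.45, limma adjusted p 0.0535). NAC2, the most abundant, had 3367.5, 2700.2 and 4576.8 in water deficit and 1613.2, 1419.4 and 1694.4 in control (log2 change 1.14, limma adjusted p 0.231).

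The few calls among MYB, WRKY and heat shock factors were lower, and they are not read as a direction of these families. Of 58 MYB genes tested, of 80 in the table, 3 fell and none rose, where 0.692% and 0.595% of all genes were called lower and higher. MYB93 had 1947.4, 1644.8 and 1329.4 normalized counts in water deficit and 2874.9, 2872.4 and 2882.6 in control, so that the controls were nearly identical and the water deficit libraries all lay below them (log2 change -0.83, limma adjusted p 0.0376). MYB93 lost its call in 9 of the 12 fits that left out 1 library. MYB48 and MYB57 fell by 1.42 and 1.11 on the log2 scale and lost their calls in 8 and 5 of these fits. With only the 6 libraries in the fit, 3 MYB genes rose and 6 fell. WRKY16 was the 1 call among 59 WRKY genes tested (1.7%, where 1.29% of all genes were called). Its log2 change was -1.05 (limma adjusted p 0.0470), and the call was lost in 10 of the 12 fits that left out 1 library. Across the 59 genes the median log2 change was 0.105, with 37 above 0 and 22 below. WRKY60 had 1299.8, 870.5 and 3293.5 in water deficit and 388.5, 334.5 and 287.6 in control (log2 change 2.21, limma adjusted p 0.0641). None of 14 DREB and ERF genes was called by limma, where 1.29% of all genes were. At an unadjusted p under 0.05, 2 were higher and 2 lower, where 2451 and 2112 of all 32963 genes were. DREB1-like, of the family that binds the drought response element, had 34.5, 10.1 and 411.2 in water deficit and 0, 3.0 and 2.1 in control (limma adjusted p 0.138). It passed the filter only through its water deficit values and had to differ for that reason.

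No heat shock factor or heat shock protein gene was called higher by limma in water deficit alone, where 0.595% of all genes were. At that share, no call in lists of 34 and 11 genes does not set them apart from all genes. At an unadjusted p under 0.05, 2 factors and 1 protein gene were higher. Limma called 1 of each lower. GMHSF-21, a heat shock factor, fell to 31.7, 31.1 and 67.4 normalized counts in water deficit, against 261.7, 220.2 and 167.4 in control (log2 change -2.36, SE 0.43, limma adjusted p 0.0269). It was the 1 call among 34 heat shock factors tested (2.94%, where 1.29% of all genes were called), and with only the 6 libraries in the fit 3 rose and 1 fell. GMHSF-08, the most abundant factor, was among those that rose. It had 3931.1, 3262.2 and 6641.9 in water deficit and 784.1, 692.6 and 691.4 in control, with no overlap. Its limma adjusted p was 0.373, or 0.00369 with only the 6 libraries. HSP17.5-E, a small heat shock protein that keeps unfolding proteins soluble, fell to 42.0, 35.7 and 51.4 in water deficit, against 126.0, 142.5 and 217.6 in control (log2 change -1.86, SE 0.29, limma adjusted p 0.0157). It was the 1 call among 11 heat shock proteins tested, whose median log2 change was 0.59, or -0.02 without water deficit library 3. HSP90-1, the most abundant of them, had 6737.9, 7869.1 and 15177.7 in water deficit and 6522.4, 7785.1 and 8154.3 in control, which overlap.

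CONSTANS-like factors, relatives of the regulator that couples day length to flowering, fell in 3 of 13 members tested and rose in none, where 0.692% of all genes were called lower and 0.595% higher. A log2 change below 0 was seen in 11 of the 13 (median -0.71). The list was added after values were seen, so its count is a description. COL10 had 2698.5, 2517.1 and 1629.9 normalized counts in water deficit and 6851.9, 6433.5 and 7386.5 in control (log2 change -1.63, SE 0.24, limma adjusted p 0.0128), and missed the threshold without control library 1 (0.06) or 3 (0.077). COL8 had 2401.8, 2130 and 1394.1 in water deficit and 4900.4, 5184 and 5878.3 in control, a log2 change of -1.46. COL22 fell by 1.92 on the log2 scale and was lost in 9 of the 12 fits. COL21, the most abundant, had 5550, 5947.8 and 2642 in water deficit and 7564.7, 7860.6 and 5751.7 in control (limma adjusted p 0.565).

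Many CONSTANS-like genes follow the time of day, and the labels give no hour of harvest, so the daily clock was looked at beside them. None of 3 morning clock genes and none of 9 evening clock genes tested was called by limma, where 1.29% of all genes were. At an unadjusted p under 0.05 there were 0 morning genes and 1 evening gene (lower). With only the 6 libraries in the fit, 1 evening gene, GMLUXC, was called lower. LCL3, a morning gene of the LHY type, had 787.5, 669.1 and 501.6 normalized counts in water deficit and 415.9, 412.2 and 331.6 in control, with no overlap (log2 change 0.74, limma adjusted p 0.799, and 0.0952 with only the 6 libraries). LCL1 had 3331.1, 2742.3 and 1876.3 in water deficit and 2815, 2518.9 and 1905.7 in control, and GMGIA, of the evening gene GIGANTEA, had 18139.4, 15843.4 and 15450.7 in water deficit and 16279.2, 17391.2 and 11432.3 in control. Both overlapped. GMLUXC had 141.8, 118.1 and 112.6 in water deficit and 318.1, 278.1 and 375.5 in control, with no overlap (log2 change -1.37, limma adjusted p 0.370, and 0.0113 with only the 6 libraries). The part of the harvest hour in the CONSTANS-like result was not tested.

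The remaining genes with names were of mixed function. TUBB1, a beta-tubulin, fell to 144.6, 151.9 and 146.2 normalized counts in water deficit, against 552.4, 681.9 and 902.7 in control (log2 change -2.23, SE 0.37, limma adjusted p 0.0179), while TUBB, another beta-tubulin, had 2998, 3295.2 and 3199.5 in water deficit and 2838.7, 2900.6 and 4009.1 in control. The tubulin copies share sequence, and how reads were divided between such copies is not stated. TUBB1 was the 1 call among 13 cell wall and tubulin genes tested, where 1.29% of all genes were called. GMNSP2, of the GRAS factors known from nodulation signalling, was lower at low counts, with 10.3, 23.8 and 7.1 in water deficit and 47.6, 61.7 and 63.8 in control (limma adjusted p 0.0402). ANNEXIN, of the calcium-dependent membrane-binding proteins, had 2242.2, 2195.9 and 3300.6 in water deficit and 563.0, 320.8 and 464.4 in control (log2 change 2.53, limma adjusted p 0.0437), lost in 9 of the 12 fits. FLS1, flavonol synthase, was the 1 call among 43 flavonoid genes tested (log2 change 1.14, limma adjusted p 0.0416), lost in 8 of the 12 fits. GMPER1, placed among 60 antioxidant and glutathione transferase genes by its symbol, was the 1 call there (log2 change 1.66, limma adjusted p 0.0182). Both counts stand beside 1.29% of all genes. At an unadjusted p under 0.05, 16 of the 60 were higher and 1 lower, where 2451 and 2112 of all 32963 genes were. A log2 change above 0 was seen in 43 of the 60, of which 3 tested members passed the filter only through water deficit. With only the 6 libraries in the fit, 5 of the 60 rose and 1 fell. ACS1 had 128.8, 61.3 and 214.5 in water deficit and 15.0, 12.2 and 8.4 in control (log2 change 3.26, limma adjusted p 0.00939), and GMTPS20 rose by 2.05 on the log2 scale.

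Called genes with names that fall outside the rule for naming were chosen after their values were seen. NRP-B, an asparagine-rich protein known in soybean from osmotic and endoplasmic reticulum stress signalling, had 1809.3, 1345.5 and 3309.4 normalized counts in water deficit and 637.9, 667.4 and 547.0 in control (log2 change 1.7, limma adjusted p 0.0191). PSK5, a precursor of the growth peptide phytosulfokine, rose by 1.26 and ACS by 1.64 on the log2 scale. Their calls were lost in 9 and 7 of the 12 fits that left out 1 library. D14, the receptor of the hormone strigolactone, had 386.3, 316.7 and 326.2 in water deficit and 918.9, 642.3 and 995.7 in control (log2 change -1.29, limma adjusted p 0.0224). PIF3, a phytochrome-interacting factor of light signalling, fell by 1.0 on the log2 scale (limma adjusted p 0.0287). None of these 5 genes had an overlap between the groups, as held for every called gene.

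**Figure D3:**
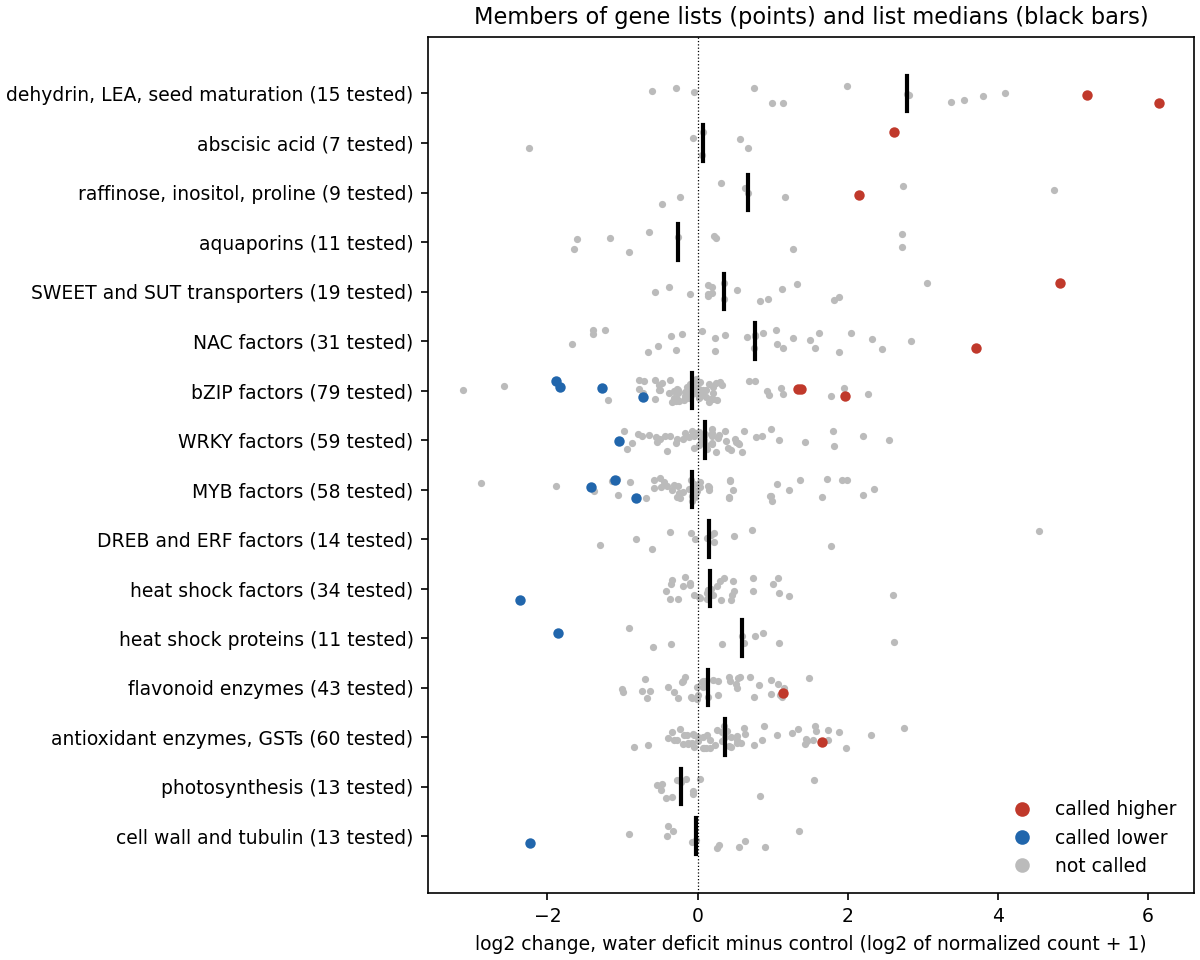
Log2 change (water deficit minus control, x axis) of every tested member of 16 gene lists, with red and blue for called genes, grey for the others and a black bar at the list median. In the top list 6 of 15 and in the list of SWEET and SUT transporters 4 of 19 members passed the filter only through water deficit, so these bars are not read as shifts.

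With 1.29% of all genes called at an adjusted p under 0.05 in limma, several small lists held no call at all. They were the vegetative storage proteins and lipoxygenases (9 tested), jasmonate genes (10), auxin genes (32), photosynthesis genes (13), protease inhibitors (4), pathogenesis-related proteins (5) and ferritins (4). At that share, no call in lists of these sizes does not set them apart from all genes. At an unadjusted p under 0.05 the jasmonate and auxin lists each had 2 lower members. The photosynthesis, inhibitor and pathogenesis lists each had 1 higher member, and the other lists had none. Over all 32963 genes, 2451 were higher and 2112 lower at that p. With only the 6 libraries in the fit, 2 jasmonate genes were called higher and none lower, and 1 auxin gene was called lower. VLXB, a vegetative lipoxygenase, had 118384, 130254 and 54247 normalized counts in water deficit and 57151, 77908 and 59492 in control, which overlap. RCA03, a low Rubisco activase, had 340.6, 254.5 and 322.6 in water deficit and 101.3, 112.8 and 95.2 in control, and was the 1 photosynthesis gene that passed with only the 6 libraries (adjusted p 0.00755, against 0.251 with all 12). The Bowman-Birk inhibitor GMBBI-1 (53.2, 59.5 and 122.3 in water deficit, 10.6, 9.1 and 14.6 in control) also passed with only the 6 libraries (0.0168), and with DESeq2.

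The most abundant members of the other lists were also uncalled. GMPR10, a pathogenesis-related protein, had 154.0, 133.6 and 1387.9 normalized counts in water deficit and 199.1, 192.8 and 182 in control, so that library 3 alone lay above the controls (limma adjusted p 0.848). GMKTI-3, a Kunitz-type protease inhibitor, had 11203.7, 16558.3 and 4435 in water deficit and 4562.1, 3497.1 and 7709.7 in control, which overlap. SFERH-2, a ferritin that stores iron, had 2202.1, 3012.3 and 916.4 in water deficit and 8748.8, 6833.5 and 2207 in control, which also overlap (limma adjusted p 0.589). The tonoplast aquaporin LOC100527509 (TIP1-8 in RefSeq) had 842.6, 1459.9 and 278.3 in water deficit and 2478.4, 1268.6 and 3103.3 in control. COI1, the jasmonate receptor, had 2084.5, 1821.5 and 1465 in water deficit and 2543.6, 2750.5 and 2837.7 in control, with no overlap (log2 change -0.61, limma adjusted p 0.122). ERF7 had a log2 change of -0.36, the auxin response factor GMARF8A of -0.41 and the nodulin NOD33 of -1.24 (limma adjusted p 0.537, 0.610 and 0.124). The groups did not overlap in ERF7 and NOD33 but did in GMARF8A, and only NOD33 had an unadjusted p under 0.05 (limma, 0.00422). Changes were smaller in WRKY57 (-0.28), the isoflavone reductase IFR2 (0.28), BZIP126 (-0.08), MYB175 (-0.04) and the iron superoxide dismutase SODB2 (0.08).

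Most of the called genes, 388 of 424, have an identifier in place of a symbol, and no function is given for those described next. LOC100791989 had 3890.1, 1571.6 and 8071.5 normalized counts in water deficit and 64.3, 71.6 and 60.7 in control (log2 change 5.79, SE 0.91, limma adjusted p 0.0157). LOC100790115 had 375.1, 218.8 and 980.2 in water deficit and 8.8, 13.7 and 4.2 in control (log2 change 5.58, limma adjusted p 0.00662). LOC100777166 rose by 4.90, a call lost in 9 of the 12 fits that left out 1 library. In all 3 of these genes the order of the water deficit libraries was the same, with library 3 highest and library 2 lowest. On the lower side, LOC102662475 had 75.6, 57.7 and 87.7 in water deficit and 1800.9, 2616.4 and 1911 in control, with the smallest p of the genes named (log2 change -4.82, SE 0.29, limma adjusted p 4.41e-05). LOC100792229 fell to 7.5, 3.7 and 0.9 in water deficit, against 157.7, 179.0 and 262.5 in control. It passed the filter only through control, and LOC100790115 only through water deficit, so both had to differ for that reason. LOC100817531, LOC100800093 and LOC100795820 had log2 changes of -4.74, -4.34 and -4.24.

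Among called genes, the 5 largest differences in the mean normalized count itself were, in each direction, mostly in genes without a symbol, while uncalled genes such as MIPS4 differed by more. LOC100799031 averaged 28004 ± 2820 in water deficit and 5858 ± 820 in control (SD, n = 3 each), a log2 change of 2.26 (limma adjusted p 0.0269) that was lost in 6 of the 12 fits. LOC100306409 averaged 16251 ± 3417 in water deficit and 6390 ± 1822 in control (limma adjusted p 0.0498), and its call was lost in 10 of the 12 fits. LOC547643 averaged 10182 ± 629 in water deficit and 2985 ± 683 in control (limma adjusted p 0.00499), and its call was kept in all 12. LOC100781448 (log2 change 2.43, lost in 9 of the 12 fits) and LOC100306479 (2.15, lost in 4) complete these 5. Downwards, LOC100786411 averaged 4553 ± 1156 in water deficit and 18134 ± 497 in control, and LOC100814324 averaged 6619 ± 366 in water deficit and 17223 ± 2088 in control (SD, n = 3 each). Their calls were lost in 5 and 8 of the 12 fits. LOC100809679, listed as PK1b, and LOC100305614 fell by 2.30 and 1.85 on the log2 scale. COL10 is the other gene of these 5.

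A few called genes were at or under 3 reads in every library of one group. Among them, 9 genes called higher had at most 3 reads in each control library, of 25 such genes tested, and 3 called lower had at most 3 reads in each water deficit library, of 10 tested. All of these passed the filter only through the group where they were high. LOC100802855 had 46.7, 20.1 and 198.5 normalized counts in water deficit and none in control, at least 28.2-fold higher when control is set to 3 reads in each library. LOC100815777 had 108.2, 59.5 and 250.8 in water deficit and 1.8, 0 and 3.1 in control, at least 44.5-fold higher. LOC100305807 had 1.9, 1.8 and 0 in water deficit and 74.9, 69.3 and 68.0 in control, at least 25.3-fold lower on the same basis. The floor covers counting error only.

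In the called genes, which were chosen on these same values, the water deficit libraries lay at different distances from control. Water deficit library 3 had the highest value of the group in 136 of the 196 higher genes, and library 2 the lowest in 140. Their median changes against the control mean on the log2 scale were 2.32 in library 3, 2.04 in library 1 and 1.72 in library 2. In the 228 lower genes, library 3 was the lowest in 147 and library 1 the highest in 121, with median changes of -1.77 in library 3, -1.47 in library 2 and -1.38 in library 1. Library 3 lay furthest from control in both directions. It also had the lowest sum of leaf marker genes, and the part of that in the result was not tested. Whether the libraries differed in their response or in the make-up of the sample was not tested either.

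Combined stress against heat stress sets water deficit against its absence under heat, and its log2 changes come from libraries that do not enter the log2 changes of water deficit against control. These libraries do enter the common estimate of the spread that decided the 424 calls, and the labels do not say whether the soil was equally dry with and without heat. In the morning clock gene LCL3, heat stress library 3 and combined stress libraries 2 and 3 stood apart from the other libraries of their groups. LCL3 had 308.1, 1863.3 and 2112.4 normalized counts in combined stress libraries 1, 2 and 3 and 204.3, 153.3 and 2012.8 in heat stress libraries 1, 2 and 3. Each count of direction is therefore also given on each side of that split. Of the 196 genes higher in water deficit, 192 (98.0%) were higher in combined stress than in heat stress, as 49.1% of all tested genes were. Of the 228 lower genes, 210 (92.1%) were lower in combined stress than in heat stress, as 50.9% of all tested genes were. On the side of low LCL3, combined stress library 1 against heat stress libraries 1 and 2, these were 191 (97.4%) and 203 (89.0%). Of all tested genes, 48.9% were higher and 51.1% lower on that side. On the side of high LCL3, combined stress libraries 2 and 3 against heat stress library 3, they were 189 (96.4%) and 210 (92.1%). Of all tested genes, 49.3% were higher and 50.7% lower there. Each side has a group of 1 library, so these counts have no measure of spread. The medians of the combined stress minus heat stress log2 change were 1.59 for the higher genes, -0.86 for the lower genes and -0.01 for all genes.

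In combined stress minus heat stress, limma also called 110 of the 196 higher genes (56.1%, where 2.23% of all tested genes were called higher) and 90 of the 228 lower genes (39.5%, where 2.73% were called lower), and none was called in the opposite direction. The contrasts share 1 estimate of the spread for each gene, so genes called in water deficit tend to have small standard errors in both, and the shares over all genes are not what genes without a change would give. These 110 and 90 genes make up 15.0% and 10% of the genes called higher and lower there. DEHYDRIN had 28752.8, 3981.7 and 9347.9 normalized counts in combined stress and 1.3, 13.9 and 17.0 in heat stress (log2 change 10.24, limma adjusted p 0.00228). MAT1 had 2872.9, 357.1 and 480.3 in combined stress and 15.1, 26 and 14.3 in heat stress (5.39, 0.00285). GMSWEET17 had 101.6, 132.6 and 180.1 in combined stress and 3.8, 0 and 0 in heat stress (6.33, 0.00365). LOC102662475 fell to 166.0, 87.0 and 112.9 in combined stress, against 778.0, 1165.4 and 1395.7 in heat stress (-3.19, 0.000612), and GMALMT8 and COL10 fell by 1.85 and 0.96. STS and GMCYP707A1A were called higher there as well (log2 changes of 2.94 and 2.21), and so was GOLS, which had missed the threshold in water deficit (4.39).

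**Figure D4:**
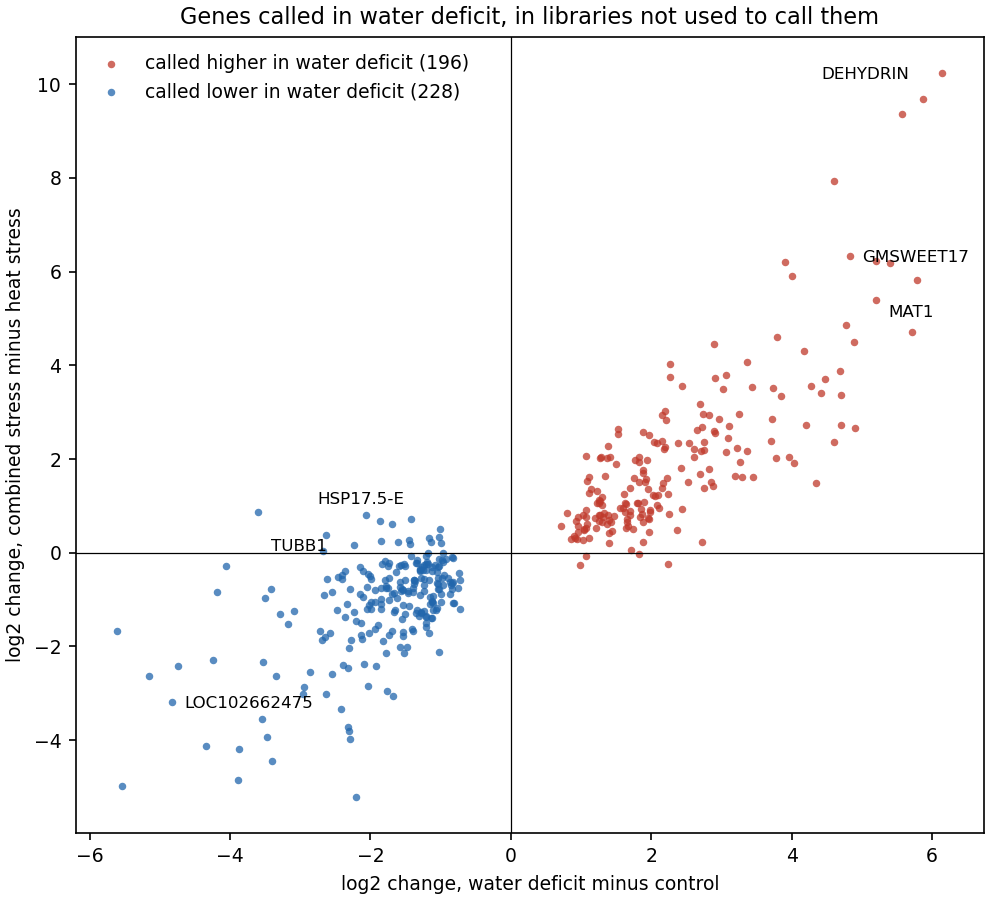
Each point is 1 of the 424 genes called in water deficit, with its log2 change in water deficit minus control on the x axis and in combined stress minus heat stress, which shares no library with it, on the y axis. Of the red points (called higher) 192 of 196 lie above 0 on the y axis, and of the blue points (called lower) 210 of 228 lie below 0.

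The exceptions were 4 of the higher and 18 of the lower genes, and the difference between these shares was not tested. HSP17.5-E had 1133.3, 1442.4 and 1439.2 normalized counts in combined stress and 834.8, 1222.1 and 565.3 in heat stress, a log2 change of 0.68 (limma adjusted p 0.209). TUBB1 had 220.5, 410.1 and 686.0 in combined stress and 329.1, 255.6 and 517.9 in heat stress (0.17, 0.832). PIF3 had 251.9, 273.4 and 354.6 in combined stress and 219.4, 195.2 and 196.5 in heat stress (0.51, 0.143). The difference between the contrasts was tested with the interaction term, and limma called 0 genes there, with a smallest adjusted p of 0.165 and 3089 genes (9.37%) at an unadjusted p under 0.05. Among the 424 called genes 139 (32.8%) had an unadjusted p under 0.05 for the interaction. They were chosen on the water deficit minus control values that also enter the interaction. A raised share was thus built in, and it is not read as a result. Because limma called 0 genes for the interaction, no gene is said to respond to water deficit in one setting and not in the other.

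**Figure D5:**
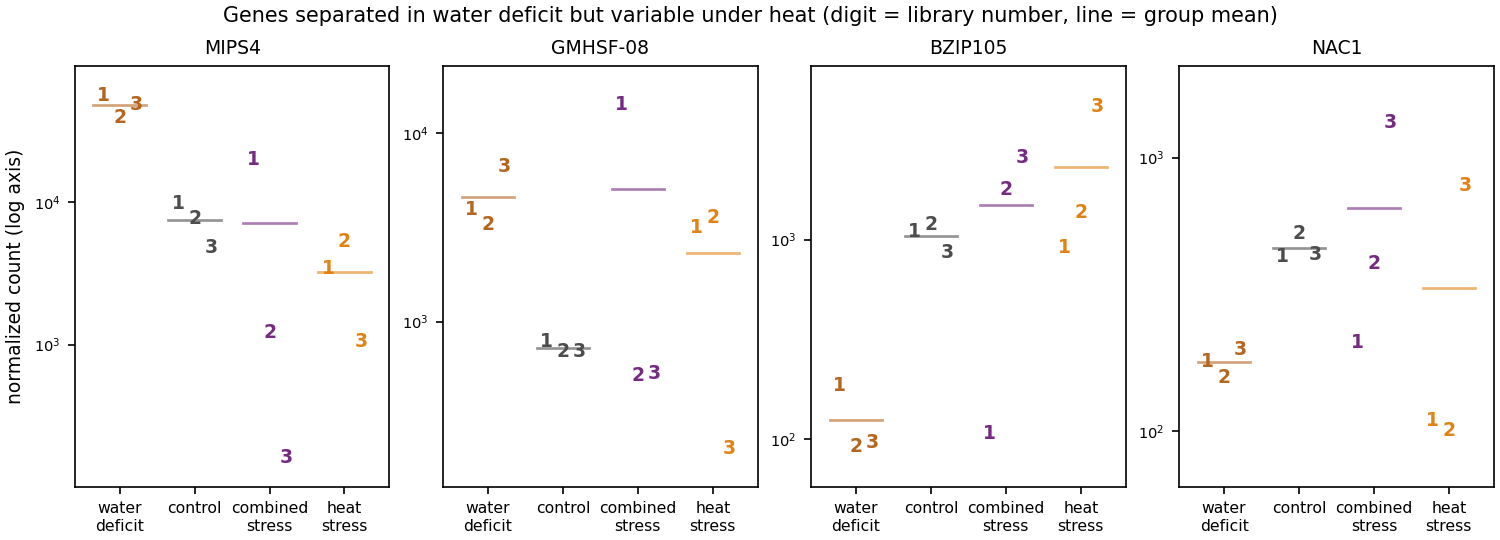
Normalized counts (log axis) of 4 uncalled genes in all 12 libraries, with groups on the x axis, digits for the library number and lines for group means. In each panel water deficit and control do not overlap, while the heat stress and combined stress libraries are far apart within their group.

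Uncalled genes include some whose water deficit and control libraries were well separated, but whose heat stress and combined stress libraries, which enter the common estimate of the spread, varied widely. MIPS4, of the enzymes that make inositol from glucose phosphate, had 56632.3, 39787.4 and 48503.2 normalized counts in water deficit and 9877.5, 7750.8 and 4800.9 in control, a log2 change of 2.74. Its limma adjusted p was 0.364 with all 12 libraries and 0.00618 with only the 6. In combined stress it had 19993.7, 1222.9 and 160.1, and in heat stress 3408.4, 5301.2 and 1049.2. GMHSF-08, a heat shock factor, had 3931.1, 3262.2 and 6641.9 in water deficit and 784.1, 692.6 and 691.4 in control (log2 change 2.61, limma adjusted p 0.373, and 0.00369 with only the 6). BZIP105 had 184.8, 92.4 and 95.7 in water deficit and 1093.4, 1186.3 and 860.8 in control (-3.13, 0.154, and 0.00289 with only the 6). NAC1 had 179.2, 157.4 and 199.4 in water deficit and 436.1, 526.5 and 443.5 in control (-1.39, 0.457, and 0.00772 with only the 6). The 4 genes were put together here after their values were seen. Of them, MIPS4 and GMHSF-08 also fall under the rule for naming, as the most abundant members of their lists. Within-group standard deviations of a gene on the log2 scale had a median of 0.27 in water deficit, 0.25 in control, 0.35 in combined stress and 0.37 in heat stress (n = 3 each).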

How the data were processed

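Leaf RNA of soybean was sequenced in 12 libraries, 3 in each of 4 groups. Reads were handled with cutadapt 1.18, FastQC 0.11.7, STAR 2.4.0.1 and DESeq2 1.20.0, per the submitters' processing notes; genome build, annotation and counting are not given in the sources used here, so no positions are given. The deposited table holds a signal per gene and library, a normalized count, which equals whole reads divided by a size factor for each library: division by the value of 1 read gave whole numbers for 100% of positive values (tolerance 0.001, largest distance 6.19e-05). No column lacked a sample (0 columns).

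Because the table holds normalized and not raw counts, the test was limma 3.58.1 (R 4.3.3) on log2(normalized count + 1) with all 12 libraries, 4 group means, a variance trend, no covariates, two-sided tests and Benjamini-Hochberg adjustment over 32963 genes. Log2 changes on this scale understate changes of low genes. PCR copies of a molecule cannot be recognised here and are counted as reads. edgeR 4.0.16 and DESeq2 1.42.0 on the recovered reads, other scalings, filters and pseudocounts, and fits without each library were alternatives. The procedure was also run on simulated data, with the same dispersion of a gene in every group and no heat effect. That simulation does not cover the wider spread of the heat stress and combined stress libraries. RefSeq (assembly Glycine_max_v4.0, names only) matched 95.8% of the tested genes. Near-identical copies and strands may share reads.

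The comparison, its gene lists and tests were chosen with earlier results of these data known. Lists were formed by symbol. Named genes are the 5 largest called changes in each direction with no overlap and a mean of 100 or more, the 10 largest among genes with a symbol of their own, the 5 largest differences in mean, and in each list the called members (up to 4 in a direction) and the most abundant one. Lists of CONSTANS-like and malate channel genes were added after values were seen. A planned description of promoter motifs was not made.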

Additional observations from a re-analysis of the deposited data

Results flagged for a closer look

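PIF3 had log2 changes of opposite sign in water deficit against control and in combined stress against heat stress. It had 258.5, 238.0 and 228.7 normalized counts in water deficit, below the 450.2, 443.4 and 572.1 of control (log2 change -1.0, limma adjusted p 0.0287). It had 251.9, 273.4 and 354.6 in combined stress, above the 219.4, 195.2 and 196.5 of heat stress (log2 change 0.51, limma adjusted p 0.143). Every water deficit library was below control and every combined stress library above heat stress, which is what drew attention to it. The interaction term had an unadjusted p of 1e-04 and a limma adjusted p of 0.366, so the difference between the contrasts did not pass the correction and no opposite response is shown.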

How the results depend on the processing

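With only the 6 libraries of water deficit and control in the fit, limma called 1339 genes (650 higher, 689 lower). Quantile normalization gave 665 (296 and 369), DESeq2 on recovered reads 1870 (1027 and 843), and edgeR on the 6 libraries, an alternative chosen after seeing the data, 1272 (618 and 654). Without a variance trend 126 were higher. Of the 424 genes, 423 were shared with DESeq2, 422 with quantile normalization and 402 with edgeR on the 6 libraries. Leaving out 1 library gave 28 to 890 calls, with 16 to 431 higher and 12 to 459 lower. Across these fits the share of called-higher genes that were higher in combined stress than in heat stress was 87.5% to 100%, and that of called-lower genes that were lower was 68.5% (without heat stress library 3) to 97.5%. The other settings (a pseudocount of 10, no filter, a mean of at least 50, the same total per library, edgeR on all 12 libraries) kept the counts within 1.5 times of 424, 196 and 228.

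None of the 57 called genes named changed sign under the settings run. Some uncalled genes did, and the cause was not tested. Scaled to equal totals, TUBB was 0.015. After quantile normalization it was 0.016 and RBCS-1 was 0.21. Over the fits that left out 1 library, TUBB was -0.11 to 0.14, RBCS-1 -0.31 to 0.29, SODB2 -0.0076 to 0.19, GMGIA -0.034 to 0.27, LCL1 -0.070 to 0.34, MYB175 -0.15 to 0.14, ZEP -0.10 to 0.29, BZIP126 -0.18 to 0.094, GMPR10 -0.41 to 1.27, GMSWEET15 -0.076 to 0.39 and HSP90-1 -0.034 to 0.55.

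No paired analysis was possible because the replicate numbers follow the order of the records and pair no libraries. With 3 libraries in each group, many differences without overlap did not pass the threshold, and a p that missed it does not show that the groups were alike. The hour of harvest, the severity of the treatment and the division of reads among gene copies limit what the values of single genes mean.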
